A study of Homo sapiens with 4 samples.

Results

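The genes that decide what happens to pyruvate were followed in HT29 and DLD1, both established human colorectal adenocarcinoma lines, with and without glucose. The set was fixed by gene symbol: PDHA1, PDHB, DLAT and DLD of the pyruvate dehydrogenase complex, the kinases PDK1, PDK2, PDK3 and PDK4, pyruvate carboxylase (PC) and the mitochondrial phosphoenolpyruvate carboxykinase (PCK2). Of these 10 genes, 9 had a probe in the platform annotation, with 10 probes among the 20236 that carry a symbol. No probe carried the symbol PDHA1, which is not analysed here. All 10 probes were above the 95th percentile of the blank spots on all 4 arrays, so all 9 genes were among the 15616 genes tested.

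Each line was cultured for 24 h in medium with 2 mM glutamine and 10% dialysed serum, either without glucose or with 10 mM glucose, so glutamine and dialysed serum were common to all groups. Each combination had 1 single-colour (Cy5) array, and no label says whether cultures were repeated. A difference within a line therefore has no replicate check. The lines are the only repeats of the medium, and the 2 media the only repeats of the line.

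Pyruvate made by glycolysis enters the mitochondrion and meets a branch point. The pyruvate dehydrogenase complex oxidises it to acetyl-CoA, and the 4 PDK isoenzymes switch that complex off by phosphorylating the subunit that PDHA1 encodes. Pyruvate carboxylase instead converts pyruvate to oxaloacetate, which refills the tricarboxylic acid cycle, and PCK2 turns mitochondrial oxaloacetate into phosphoenolpyruvate. Through PCK2, carbon from glutamine can reach phosphoenolpyruvate when glucose is absent, and PCK2 is a known target of the amino acid response factor ATF4. PDK1 is a known target of hypoxia-inducible factor, and PDK4 is known for its induction by fasting in muscle and liver.

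The promoters of PCK2, PDHB and PDK3 are shown because these genes had the largest differences between media or between lines. Each runs from 250 bases before to 50 bases after the RefSeq start of the gene on GRCh38.p14, and capitals mark CCAAT and ACGTG on either strand (ATTGG and CACGT where read on the other strand). PCK2 lies at chr14:24094061-24094360 on the plus strand, PDHB at chr3:58433783-58434082 on the minus strand and PDK3 at chrX:24465036-24465335 on the plus strand.
PCK2: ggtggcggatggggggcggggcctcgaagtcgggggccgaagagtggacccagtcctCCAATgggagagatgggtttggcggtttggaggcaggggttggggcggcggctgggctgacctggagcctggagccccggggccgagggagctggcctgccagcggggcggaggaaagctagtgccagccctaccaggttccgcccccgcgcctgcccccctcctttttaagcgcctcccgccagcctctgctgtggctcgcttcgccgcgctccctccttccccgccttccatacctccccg
PDHB: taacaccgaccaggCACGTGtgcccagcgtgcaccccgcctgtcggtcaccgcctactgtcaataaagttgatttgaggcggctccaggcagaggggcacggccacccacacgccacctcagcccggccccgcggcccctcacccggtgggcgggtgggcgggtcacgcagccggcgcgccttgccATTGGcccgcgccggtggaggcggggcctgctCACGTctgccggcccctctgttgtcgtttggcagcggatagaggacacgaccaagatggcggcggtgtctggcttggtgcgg
PDK3: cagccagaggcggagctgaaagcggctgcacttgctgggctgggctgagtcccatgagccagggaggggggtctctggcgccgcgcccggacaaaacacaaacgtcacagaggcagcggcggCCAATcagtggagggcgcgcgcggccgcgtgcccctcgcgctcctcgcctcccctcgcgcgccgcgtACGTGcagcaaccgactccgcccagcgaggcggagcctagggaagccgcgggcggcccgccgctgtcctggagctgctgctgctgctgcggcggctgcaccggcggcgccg

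The PCK2 window held 1 CCAAT at -193 (positions are counted from the start of the gene, upstream negative) and no ACGTG. The PDHB window held CCAAT at -64 and the palindrome CACGTG, an E-box that contains ACGTG on both strands, at -236, with a further ACGTG at -32. PDK3 held CCAAT at -128 and ACGTG at -61. Across the promoters of all 10 genes, CCAAT was present in 8 (all but DLAT and PDK2), and ACGTG in 4 (PDHB, DLAT, PDK3 and PC). Of 27305 RefSeq promoters of the same length, 35.7% held CCAAT and 21.6% held ACGTG on either strand. TGATGNAA, the element that ATF4 binds with C/EBP partners, was in none of the 10 windows and in 3.67% of all promoters. GTAAACA (FOXO), TGACGTCA (cyclic AMP response), TCAAGGTCA (estrogen-related receptor) and the NRF1 motif (by name) were also in none of the 10, against 3.41%, 1.98%, 0.359% and 6.28% of all promoters. These are matches of letters within 300 bases and are not binding sites.

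Levels are given first as the deposited intensity, in arbitrary units on a linear scale, in which each array's listed probes have a median of 25.0. Changes are then given as log2 values without over with glucose, after background correction with an offset of 50 and quantile normalization. That offset shrinks the changes of dim probes. For the 9 genes the deposited change is therefore set beside it where they are dim and wherever it moved by over 1.5 times. For the further gene lists below, changes are on the normalized scale unless stated, and the deposited change of a dim gene could differ. In HT29 the deposited change was 1.76 for EPAS1, -1.12 for DBT and -1.06 for BTD, against normalized changes of 0.31, -0.44 and -0.46. The spread of a single probe's change, from 1681 genes read by 2 probes, was 0.297 log2 in HT29 and 0.196 in DLD1. It measures how far probes of a gene differ on the same arrays, and holds no variation between arrays or cultures.

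**Figure D1:**
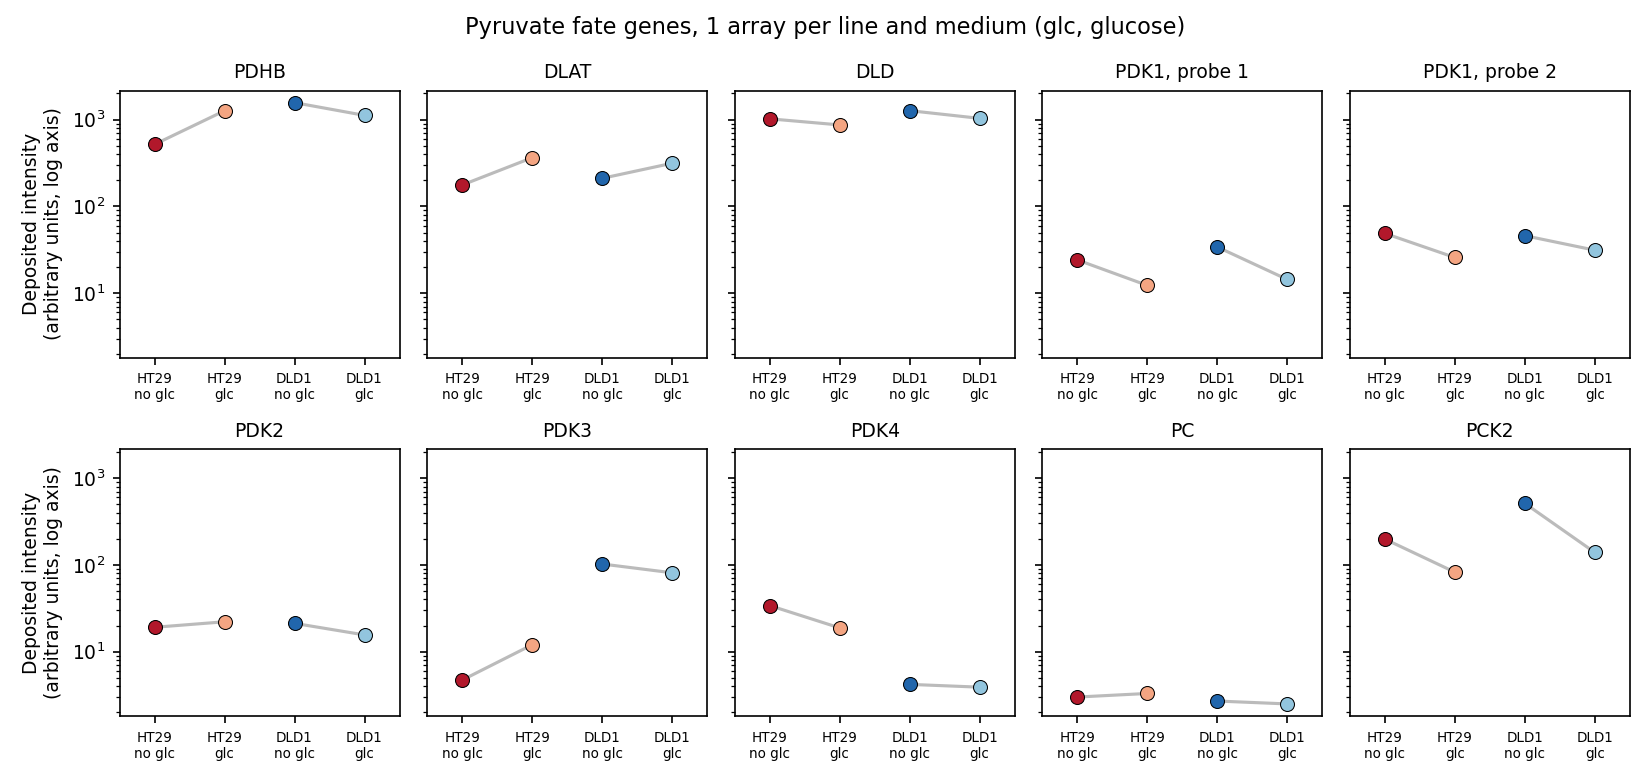
Deposited intensity (arbitrary units, log axis) of the 10 probes on each of the 4 arrays, with a line joining the 2 media of each cell line; every point is 1 array, so there are no error bars. PCK2 and both PDK1 probes were higher without glucose in both lines, DLAT was lower in both, and PDHB went opposite ways.

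Of the 9 genes, PCK2 had the largest difference between media shared by both lines. Its intensity was 198.6 without glucose and 82.6 with glucose in HT29, and 512.4 without and 139.2 with glucose in DLD1. All 4 values were well clear of the blank spots, and both values without glucose lay above both values with it. The deposited intensities gave 2.40-fold in HT29 and 3.68-fold in DLD1. On the normalized log2 scale PCK2 was 0.95 higher in HT29 and 1.85 higher in DLD1 (mean 1.40 ± 0.64, SD, n = 2 lines), which placed it 651st and 26th among the 15616 genes ordered from the highest change. Limma with the line as a block gave PCK2 an adjusted p of 0.349. In RNA of whole cultures, fewer cells of a kind and less RNA per cell cannot be told apart.

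In HT29 none of the 9 genes was at least 2-fold higher on that scale, where 3.82% of all genes tested were. In DLD1 PCK2 was 1 of 188 such genes, a background of 1.2%. Either way, 7.11% of all genes were past 2-fold in HT29 and 2.01% in DLD1, where 0.807% were at least 2-fold lower and none of the 9 was. PCK2 was past 2-fold in HT29 as well with the deposited values (1.27 log2), offset 16 (1.14) and cyclic loess (1.01). It was short of 2-fold with the local background subtracted (0.998) and with median scaling (0.77). With these 5 alternative settings the change of PCK2 ran between 0.77 and 1.27 in HT29 and between 1.52 and 2.03 in DLD1.

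The genes of the pyruvate dehydrogenase complex did not share a direction. PDHB encodes the beta subunit of the decarboxylase component. Its intensity was 517.9 without and 1264.2 with glucose in HT29, and 1568.3 without and 1118.7 with glucose in DLD1. Removal of glucose thus went with the lowest of the 4 values in HT29 and with the highest in DLD1. PDHB was -1.14 log2 in HT29 and 0.81 in DLD1 (mean -0.16 ± 1.38, SD, n = 2 lines; limma adjusted p = 0.954). It was 1 of 514 genes at least 2-fold lower in HT29, against a background of 3.29%.

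The HT29 change of PDHB minus the DLD1 change was -1.95 log2, the 26th lowest of 15616 genes. Only 47 genes (0.301%) were at least 0.5 log2 higher in DLD1 and at least 0.5 lower in HT29, a limit chosen after the values were seen. The difference between the lines rests on 1 array per line and medium and was not tested. It lay between -2.01 and -1.77 under the 5 alternative settings that could move it. The other 3, on filters and the choice of probe, could not, since PDHB has 1 probe that was above background on every array. The DLD1 change alone was 0.36 under median scaling and 0.49 in the deposited values.

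DLAT encodes the acetyltransferase core of the complex. Its intensity was 176.2 without and 363.7 with glucose in HT29, and 210.5 without and 314.0 with glucose in DLD1. Both values without glucose were below both values with it. DLAT was -0.82 log2 in HT29 and -0.38 in DLD1 (mean -0.60 ± 0.31, SD, n = 2 lines; limma adjusted p = 0.377), and was the only member lower in both lines, where 32.8% of all genes were. With the deposited values it was 2.06-fold lower in HT29 and 1.49-fold lower in DLD1, and with the local background subtracted its change was -0.53 in HT29 and -0.11 in DLD1.

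DLD encodes the dihydrolipoamide dehydrogenase that the complex shares with the oxoglutarate and branched-chain keto acid complexes and the glycine cleavage system. Its intensity was 1020.9 without and 868.2 with glucose in HT29, and 1267.8 without and 1033.5 with glucose in DLD1. The values without glucose were the higher ones within each line, although the HT29 value without glucose lay just below the DLD1 value with it. DLD was 0.25 log2 higher in HT29 and 0.58 in DLD1 (mean 0.42 ± 0.23, SD, n = 2 lines; limma adjusted p = 0.396). Median scaling left -0.02 in HT29 and 0.17 in DLD1, so the direction in HT29 depended on the scaling, and in DLD1 the deposited values gave 0.29 and the local background 0.18.

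The changes of these subunits were also set against each other within each line, on 1 array per medium and without a test. The change of DLAT minus that of DLD was -1.07 log2 in HT29 and -0.96 in DLD1, but -0.89 and -0.29 with the local background subtracted. The change of PDHB minus that of DLAT was -0.32 in HT29 and 1.19 in DLD1, or -0.71 and 0.76 with the local background subtracted. PDHB minus DLD was -1.39 in HT29 and 0.23 in DLD1, or -1.60 and 0.46 with the local background subtracted. The values of -0.32 in HT29 and 0.23 in DLD1 are little above the spread of a single probe (0.297 and 0.196). Each compares 2 probes, so they do not show a shift.

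**Figure D2:**
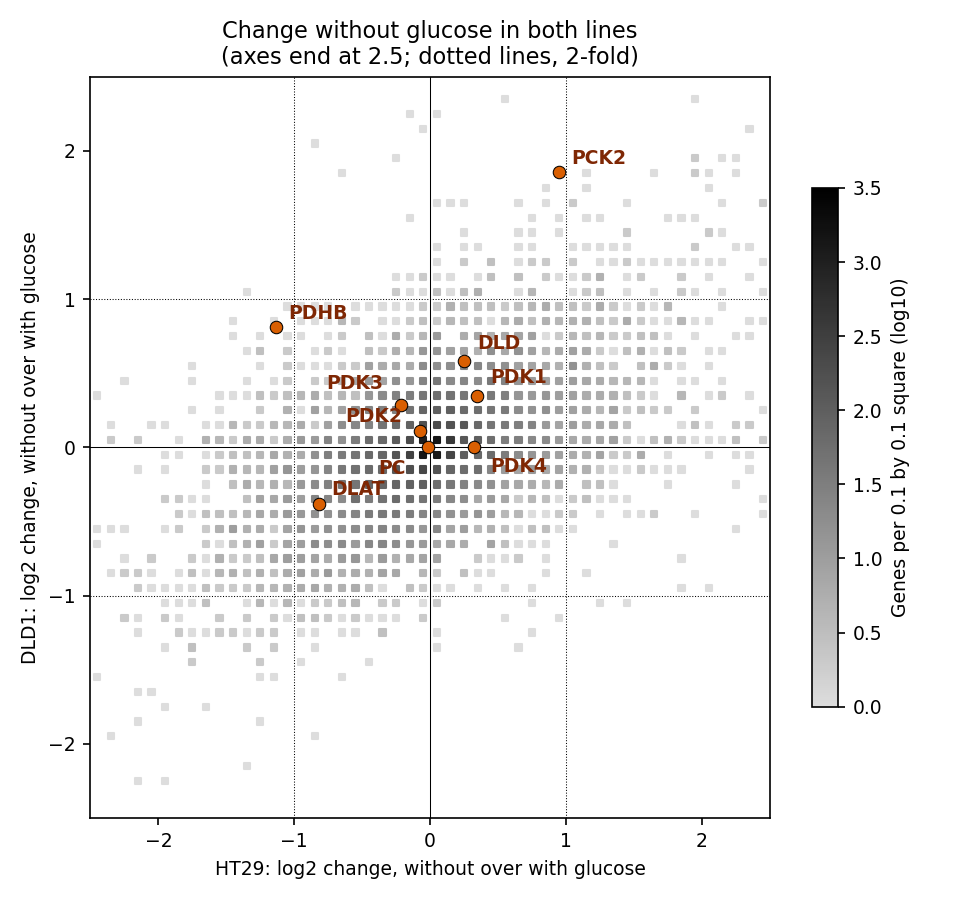
Log2 change without over with glucose in HT29 (horizontal) and DLD1 (vertical) for 15616 genes, in grey squares shaded by the number of genes, with the 9 pyruvate fate genes in orange; genes beyond 2.5 are not drawn. PCK2 lies at 0.95 and 1.85, and PDHB at -1.14 and 0.81 in the sparse upper left.

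Of the kinases, PDK1 was alike in both lines. Its probe AHsV10001636 read 24.2 without and 12.3 with glucose in HT29, and 34.1 without and 14.4 with glucose in DLD1. Its probe H300006468 read 48.9 without and 25.8 with glucose in HT29, and 46.0 without and 31.3 with glucose in DLD1. For each probe both values without glucose lay above both values with it. The deposited intensities gave 1.97-fold and 1.90-fold in HT29 and 2.37-fold and 1.47-fold in DLD1 for the 2 probes.

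On the normalized scale PDK1 was 0.35 higher in each line (mean 0.35 ± 0.00098, SD, n = 2 lines), and the mean of the deposited log2 changes was 0.95 in HT29 and 0.90 in DLD1. With the local background subtracted PDK1 was 0.22 higher in each. On the normalized scale the limma adjusted p of PDK1 for the medium, 0.306, was the lowest of the 9 genes. That order depended on the processing: PCK2 had the lowest with the deposited values, and DLAT with median scaling. The single probes were less alike, at 0.27 (AHsV10001636) and 0.43 in HT29 and 0.43 and 0.27 in DLD1.

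PDK2, the most widely expressed isoenzyme across tissues, was dim and near level. Its intensity was 19.1 without and 22.1 with glucose in HT29, and 21.2 without and 15.6 with glucose in DLD1, so the values of the 2 media overlapped. The normalized change was -0.07 in HT29 and 0.11 in DLD1, both within the spread of a single probe, and the deposited change was -0.21 in HT29 and 0.44 in DLD1.

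PDK3 differed by line more than by medium. Its intensity was 4.7 without and 12.0 with glucose in HT29, against 102.4 without and 81.1 with glucose in DLD1. Both HT29 values were far below both DLD1 values and close to the blank spots, of which 99.1% were dimmer without and 99.6% with glucose. The normalized change was -0.22 in HT29 and 0.28 in DLD1. The HT29 value depended on the processing, at -1.35 in the deposited values and 0.03 with the local background subtracted.

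PDK4 had the opposite line pattern. Its intensity was 34.0 without and 18.8 with glucose in HT29, against 4.2 without and 3.9 with glucose in DLD1. Both DLD1 values were close to the blank spots, of which 98.9% and 98.8% were dimmer. PDK4 was 0.32 log2 higher in HT29, or 0.85 with the deposited values and 0.11 with the local background subtracted, and 0.00095 in DLD1. Across the 2 lines limma gave an adjusted p of 0.660.

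PC was near the floor throughout. Its intensity was 3.0 without and 3.3 with glucose in HT29, and 2.7 without and 2.5 with glucose in DLD1. Between 97.9% and 99.0% of the blank spots were dimmer than the PC probe on each array, and between 23.6% and 26.9% of all probes were as dim or dimmer. Its normalized change was -0.02 in HT29 and 0.00124 in DLD1, and its deposited change -0.14 and 0.11. A difference in PC between media was not detectable at this signal, and a low reading of 1 probe does not show that the transcript was absent.

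Over the 9 genes the median change was -0.015 log2 in HT29 and 0.28 in DLD1, beside medians of -0.0023 and -0.0024 over all genes tested. Higher in both lines were 4 of 9 (PCK2, DLD, PDK1 and PDK4), where 30.8% of all genes were. Of these, PDK4 in DLD1 was level at a probe near the blanks, and DLD in HT29 was within the spread of a single probe and below 0 with median scaling. Higher in DLD1 and lower in HT29 were 4 of 9 (PDHB, PDK2, PDK3 and PC), against 17.9% of all genes. For PC and PDK2 both changes were within the spread of a single probe. For PDK3 the HT29 change was within it too, near the blanks, and was 0.03 with the local background subtracted. For the medium, 0 of 15616 genes had a limma adjusted p below 0.05 in the fit that takes the line as a block (0% of all genes, smallest adjusted p = 0.302). Without adjustment 2157 genes (13.8%) were below 0.05, among them PCK2 and PDK1. The fit has 1 residual degree of freedom, and in simulated data its adjusted p called none of the planted changes, so the count of 0 does not show that genes were alike in the 2 media.

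**Figure D3:**
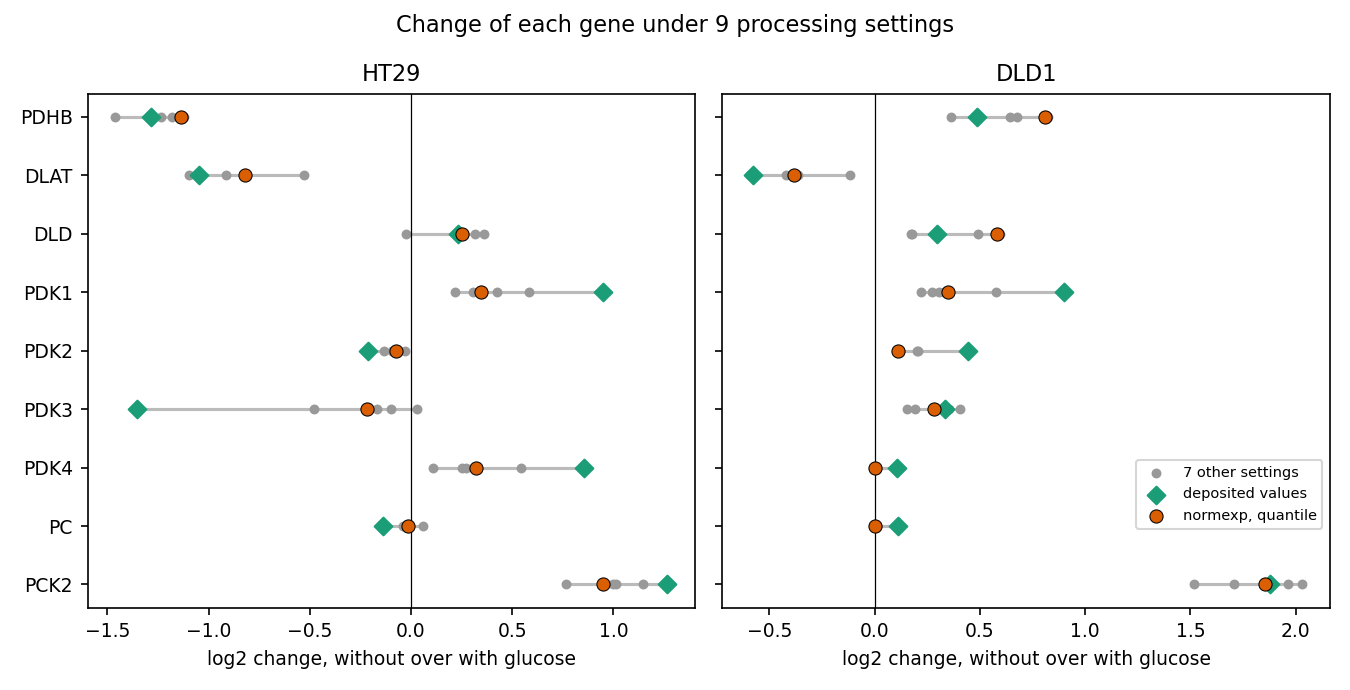
Log2 change without over with glucose in HT29 (left) and DLD1 (right) under 9 processing settings: orange, background-corrected and quantile normalized; green diamonds, deposited values; grey points, the 7 others; bars span the lowest and highest. For genes with 1 probe, 3 of the settings repeat the orange value. PDHB lies below 0 in HT29 and above 0 in DLD1 under every setting drawn, and PDK3 in HT29 spans -1.35 to 0.03.

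The lines themselves were compared next, as HT29 minus DLD1 in each medium. PDK3 was lower in HT29 by the largest shared amount, at -1.69 log2 without glucose and -1.20 with glucose (mean -1.44 ± 0.35, SD, n = 2 media). The size depended on the processing, and the HT29 values are near the blank spots. Over the alternatives it ran between -4.45 (deposited values) and -1.03 (local background subtracted) without glucose, and between -2.76 and -0.65 with glucose. PDK3 was 1 of 297 genes (1.9%) at least 2-fold lower in HT29 in both media, a call that the local background ended with glucose. PDK4 was higher in HT29, at 0.71 without and 0.39 with glucose. There the DLD1 values are near the blank spots, and the difference was 3.02 and 2.27 with the deposited values but 0.20 and 0.09 with the local background subtracted. Over all genes the deposited difference had a median of 0.16 log2 without and 0.11 with glucose, and under quantile normalization 0.0041 and -0.0013.

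Limma with the medium as a block gave an adjusted p of 0.155 for PDK3 and 0.212 for PDK4, and called 0 of 15616 genes (0%), with 3343 (21.4%) at an unadjusted p below 0.05. In log2 of the deposited values it called 772 of 14906 genes, with an adjusted p of 0.037 for PDK3 and 0.032 for PDK4. That call for these dim probes therefore depended on the scale used.

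Without glucose, 3 of the 9 genes were at least 2-fold lower in HT29, namely PDHB (-2.07), PDK3 and PCK2 (-1.53), where 4.78% of all genes were. With glucose PDK3 alone was past that size, though not with the local background subtracted (-0.65), where 2.73% of all genes were, and PDHB (-0.12) and PCK2 (-0.62) were not. The PDHB difference with glucose was above 0 in 2 alternatives, at 0.19 under median scaling and 0.18 in the deposited values. DLD was lower in HT29 in both media, at -0.84 without and -0.51 with glucose, or -0.31 and -0.25 in the deposited values. DLAT (-0.41 and 0.03), PDK1 (-0.10 in each medium), PDK2 (-0.05 and 0.13) and PC (0.0072 and 0.024) stayed under 0.5 log2 in both on the normalized scale. Limma's adjusted p for the line was 0.187 (DLD) or more for each of the 8 genes other than PDK3.

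**Figure D4:**
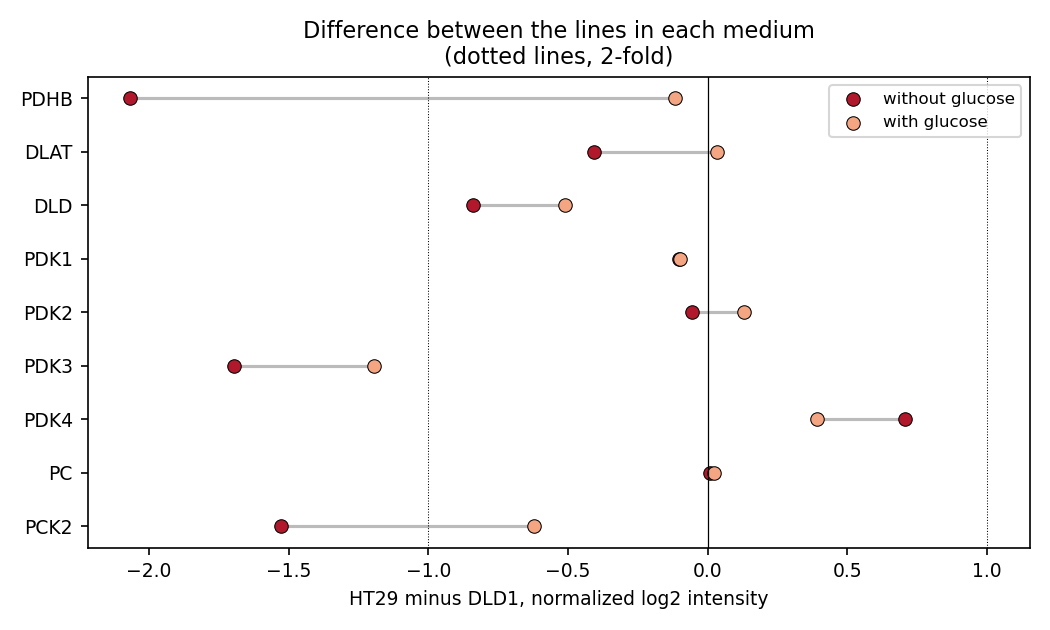
Difference between the lines, HT29 minus DLD1, in normalized log2 intensity without glucose (dark red) and with glucose (light red) for the 9 genes, 1 array per point. PDK3 lies beyond 2-fold lower in HT29 in both media, while PDHB lies at -2.07 without glucose and -0.12 with it.

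The rest of the pathway was read from 7 gene lists. None of their 52 tested genes had a limma adjusted p below 0.05 for the medium, and 7 had an unadjusted p below 0.05 (PKM, LDHA, LDHB, GPT2, BSG, ATF4 and HIF1A), where 13.8% of all genes did. Over all genes 30.8% were higher and 32.8% lower in both lines. Among 10 enzymes that make or use pyruvate, 4 were lower in both lines and 4 were higher (median -0.03 in HT29 and 0.07 in DLD1). The lactate dehydrogenase gene LDHA read 4388.2 without and 15138.0 with glucose in HT29, and 2554.9 without and 8400.3 with glucose in DLD1. LDHB was -1.09 in HT29 and -0.58 in DLD1, and the pyruvate kinase gene PKM -0.94 and -0.88. ME1, the cytosolic malic enzyme, which makes pyruvate from malate, read 2369.4 without and 579.5 with glucose in HT29 but 1657.3 without and 1583.3 with glucose in DLD1.

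The mitochondrial pyruvate carrier is a heterodimer of the MPC1 and MPC2 products. Its genes went opposite ways in HT29 and were both lower without glucose in DLD1. MPC2 read 367.6 without and 794.6 with glucose in HT29, and 487.0 without and 706.1 with glucose in DLD1. MPC1 read 1457.9 without and 969.0 with glucose in HT29, and 335.3 without and 526.8 with glucose in DLD1. MPC2 was thus -0.94 in HT29 and -0.28 in DLD1, and MPC1 0.57 in HT29 and -0.42 in DLD1. Of the 5 tested carrier genes, 3 were lower and 0 higher in both lines (median -0.04 in HT29 and -0.29 in DLD1). Beside MPC2 these were BSG, the chaperone of the monocarboxylate transporters, at -0.55 in HT29 and -0.30 in DLD1, and the transporter gene SLC16A1 at -0.04 and -0.29. SLC16A3, which encodes the main lactate exporter of glycolytic cells, was 0.45 in HT29 and -0.26 in DLD1.

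Among 7 tested partners of the complex, 4 were higher and 1 was lower in both lines (median 0.12 in HT29 and 0.03 in DLD1). On the normalized scale all 4 higher ones changed by less than the spread of a single probe in both lines, but they are dim. In the deposited values PDHA2 was 1.19 in HT29 and 0.78 in DLD1, and PDP2 0.71 and 0.47. LIPT1 was 0.67 and 0.34 there, and PDPR 0.045 and 0.56. The lower one was LIAS, lipoic acid synthase, at -0.40 in HT29 and -0.17 in DLD1 on the normalized scale. Its DLD1 change was within the spread of a single probe. PDP1, a phosphatase that reverses the action of the kinases, was 0.67 in HT29 and -0.31 in DLD1. Its intensity was 49.7 without and 15.2 with glucose in HT29, against 75.7 without and 107.9 with glucose in DLD1. The other phosphatase gene, PDP2, was 0.17 and 0.14 on the normalized scale, and the lipoyl transferase gene LIPT1 0.17 and 0.08.

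The cytosolic counterpart of PCK2, PCK1, was dim, at 27.3 without and 17.4 with glucose in HT29 and 17.4 without and 12.2 with glucose in DLD1. Its normalized change was 0.22 in HT29 and 0.11 in DLD1. Of the 5 tested genes of gluconeogenesis beside PCK2, 2 were higher and 1 was lower in both lines (median -0.0089 in HT29 and 0.03 in DLD1). FBP1, fructose bisphosphatase, was -1.12 in HT29 and 0.14 in DLD1, the glucose 6-phosphatase genes G6PC3 -0.0089 and -0.25, and G6PC1 0.12 and 0.03.

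Of 7 tested genes of the related complexes, 3 were higher and 1 was lower in both lines (median 0.10 in HT29 and 0.03 in DLD1). BCKDHB, the counterpart of PDHB in the branched-chain complex, was 0.10 in HT29 and 0.61 in DLD1. BCKDK, the kinase of that complex, was 0.59 and 0.03, DLST 0.17 and 0.26, and DBT -0.44 and -0.06. Of 8 biotin carboxylase and biotin genes, 2 were higher and 2 lower in both lines (median -0.17 in HT29 and 0.06 in DLD1). The lower ones were BTD, which recycles biotin, at -0.46 in HT29 and -0.21 in DLD1, and HLCS, which attaches biotin to PC, at -0.17 and -0.25. PCCB, a subunit of propionyl-CoA carboxylase, was -0.17 in HT29 and 0.81 in DLD1, and MCCC2 -0.56 and 0.10.

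Among 10 regulators, 6 were higher and 0 lower in both lines (median 0.13 in HT29 and 0.14 in DLD1). ATF4 was 0.64 in HT29 and 0.78 in DLD1 as the mean of 2 probes that disagreed. One read 4667.7 without and 1737.5 with glucose in HT29 and 4445.6 without and 1794.4 with glucose in DLD1, which is 1.31 and 1.45 on the normalized log2 scale. The dimmer one gave -0.02 in HT29 and 0.11 in DLD1. HIF1A was 0.23 and 0.34, with probes that disagreed in HT29 at -0.08 and 0.55. EPAS1 was 0.31 and 0.07, and FOXO3 0.73 and 0.16.

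The genes most like each member in pattern were taken by the smallest root mean square difference of centred log2 values over the 4 arrays. For PCK2 these were JDP2 (0.093), RBMS2 (0.137) and CRELD1 (0.151), and only 5 genes were within 0.2. For PDHB they were MT1H (0.059), CKB (0.078) and MT1P3 (0.117), with 18 genes within 0.2. MT1H and MT1P3 belong to the metallothionein family, whose near-identical copies a probe may not tell apart. PDK3 was most like HERC5 (0.023), AIG1 (0.028) and IL20RA (0.043), with 103 genes within 0.2, and DLD was most like EIF3L (0.027), EZR (0.028) and TMEM134 (0.030), with 449 genes within 0.2. The other members spanned under 1 log2 unit over the arrays and were not matched in this way.

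As a check of identity, 9 of 10 colorectal epithelial markers had a probe and all 9 were above background on every array, with summed deposited intensities of 30508 and 36299 in HT29 without and with glucose and 26004 and 26873 in DLD1. The intestinal genes CDX2 and CDH17 were close to the floor in HT29, at 6.2 and 3.0 without and 4.0 and 4.8 with glucose, against 148.7 and 238.0 without and 289.4 and 143.7 with glucose in DLD1. Of 8 markers of other cell types with a probe, PTPRC, COL1A1 and COL1A2 were above background on no array, and the other 5 on all arrays. Among these CD68 read 78.9 without and 19.1 with glucose in HT29, and 36.4 without and 16.7 with glucose in DLD1. CD14 went the other way, at 29.4 without and 38.4 with glucose in HT29, and 18.9 without and 25.4 with glucose in DLD1. DES read 47.8 without and 44.3 with glucose in HT29, and 38.5 without and 34.9 with glucose in DLD1. CD3E and VWF read 5.6 or less on every array. The summed intensity of the 8 was 165.6 without and 108.5 with glucose in HT29, and 101.2 and 84.9 in DLD1. Their part in the results was not tested.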

How the data were processed

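Groups came from the sample titles. The deposited scanner output gives spot median intensity, built from 3 scanner gains per the file headers. The authors' deposited value table also holds intensity. Each of its columns was linear in the spot medians with a median of 25.0, and how it was made is not stated in the labels or headers.

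Spot medians were background-corrected by normexp (offset 50) over all spots, without the local background. That background tracked the signal, with correlations of their logs between 0.904 and 0.966. Probes were then quantile normalized (limma 3.58.1, R 4.3.3), leaving out control spots and 1 flagged probe. Above background means brighter than the 95th percentile of 2680 blank spots, which held for 85.5% to 87.0% of 24460 probes. Symbols were updated through RefSeq synonyms. Probes that passed on any array were averaged per gene, and genes measured in both lines were tested.

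Limma fitted line and medium together, with Benjamini-Hochberg adjustment over all genes at 0.05. Its p-values measure the spread between these 4 arrays only, which may be technical, and their number limits the precision. The lines pair the arrays by design. The procedure was tested on simulated data, where it recovered the sizes of planted changes but called none of them at an adjusted p below 0.05. Alternatives were median scaling, cyclic loess, local background, offset 16, stricter and no filters on dim probes, the brightest probe and the deposited values. Those on line differences and on the difference of changes were added after seeing the data.

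The members and the 7 lists were chosen with earlier results of these data known. Named were all members, the 4 genes of each list with the largest mean change and, for members spanning at least 1 log2 unit, the 3 genes most like them. MPC1 and GPT2 fall outside that rule and were chosen after their values were seen.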

Additional observations from a re-analysis of the deposited data

Results flagged for a closer look

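PDHB stands out because its arrays moved opposite ways in the lines, by more than the spread of a single probe in each. That spread holds no variation between arrays or cultures. The HT29 change minus the DLD1 change was -1.95 log2, from -1.14 in HT29 and 0.81 in DLD1. The difference was not tested, since each line and medium has 1 array.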

How the results depend on the processing

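For the medium, limma called 0 genes under each of the 8 alternatives and 0 with no replicate block, that is, without the line as a term (1218 genes at an unadjusted p below 0.05). With so few arrays the fit also called none of the changes planted in simulated data, so these counts say nothing about stability. For the line it called 772 genes with the deposited values, PDK3 and PDK4 among them, 25 with no replicate block, none of them a member, and 0 otherwise. The count of genes at least 2-fold different was 1110 in HT29 but 3095 with deposited values, and 314 in DLD1 but 1063 with local background, 518 with offset 16 and 1214 with deposited values. Under median scaling, 444 genes were higher and 895 lower in HT29, where quantile normalization gave 596 and 514, and 96 were higher and 321 lower in DLD1, where it gave 188 and 126. In DLD1 the local background gave 503 and 560, and the deposited values 562 and 652. The median of the 9 genes in HT29 was -0.015, and -0.14 with deposited values. In DLD1 it was 0.28, and 0.16 with median scaling, 0.19 with cyclic loess, 0.20 with local background and 0.36 with offset 16. Of 46 recomputed member changes per line that an alternative could move, 41 in HT29 and 34 in DLD1 stayed within the spread of a single probe. The changes past 2-fold, PDHB in HT29 and PCK2 in DLD1, kept their sign. Of the smaller HT29 changes, those of DLD and PC changed sign under median scaling. That of PDK3 did so with the local background subtracted. For genes with 1 probe the filters and the brightest probe could move nothing. The 1360 brightest genes had a median of -0.15 in HT29 and -0.09 in DLD1, or -0.37 and -0.39 with median scaling, and PDHB and DLD are bright. PC, PDK4 in DLD1 and PDK3 in HT29 are limited by signal over background. The cause of these differences was not tested.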
